A study of Homo sapiens with 52 samples.

Results

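DDR-Sen cells are WI-38 fibroblasts that stop dividing after doxorubicin (DXR), and the values below describe them 6 and 8 days after the drug was washed away. WI-38 is an established fibroblast line from human lung that divides for a limited span. Young cells received 250 nM DXR, which was washed out after 24 h, and days are counted from that wash. The untreated group was made of young cells of the same line without DXR, at a population doubling level of 32 to 46, and its labels give no day, so time in culture and the treatment cannot be told apart. Each of the 3 groups has 2 libraries of mRNA sequencing. The genes described are those with a mean normalized count of at least 10 in the comparison of each day with untreated cells, which kept 14340 of the 59408 genes listed. At that threshold KCNJ6 was just inside, at 10.00 on day 6, and CXCL5 just outside, at 9.97.

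DXR stalls topoisomerase II on DNA and leaves double-strand breaks. Kinases that sense such breaks stabilize p53, and p53 raises the CDK inhibitor p21, encoded by CDKN1A. With CDKs inhibited, the RB family and the DREAM complex shut off genes of DNA replication and mitosis. Cells that stay arrested can become senescent, a state known for loss of lamin B1, more lysosomes and a secretome of cytokines, chemokines and proteases called the SASP.

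The untreated libraries held 18971753 and 15258997 counted reads, and the 4 DDR-Sen libraries held 23278125 to 29424140. At an equal normalized count, the untreated side therefore carries the larger counting error. Libraries of a group are called the larger and the smaller by the total of counted reads, because no replicate number could be tied to them. Values are given in that order. The standard deviation between libraries, on the log2 scale, was 0.301 in untreated cells, 0.256 on day 6 and 0.259 on day 8. The 10 fibroblast markers all passed the filter. Endothelial, epithelial, leukocyte, neuron and muscle lists had 2 of 7, 2 of 8, 1 of 8, 2 of 6 and 0 of 6 genes past it, and KRT5, SFTPC, NKX2-1, MS4A1 and MYOD1 were at 0 in all 6 libraries. The study's methods call the samples of a group independent, without saying whether they came from separate cultures. The p-values therefore measure only a spread between libraries of a group. That spread was shared over 26 libraries in 13 groups, those described here among them.

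A gene was called higher or lower at an adjusted p under 0.05 in limma, and fold changes are on the scale of log2(normalized count + 1). On day 6, 2726 genes (19.0%) were higher and 3022 (21.1%) lower than in untreated cells. On day 8, 2745 genes (19.1%) were higher and 3029 (21.1%) lower. Scaling by total reads turned this balance, with 3137 higher and 2543 lower on day 6 and 2834 and 2815 on day 8. Read side by side, 1979 genes (13.8%) were higher on both days and 2288 (16.0%) lower on both. The days share the untreated libraries, so these joint counts are a description. A further 1475 genes were called on day 6 and not on day 8, and 1501 on day 8 and not on day 6. A direct test between the days called only 135 and 177 of these, so most calls made on 1 day are not shown to differ between the days.

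**Figure D1:**
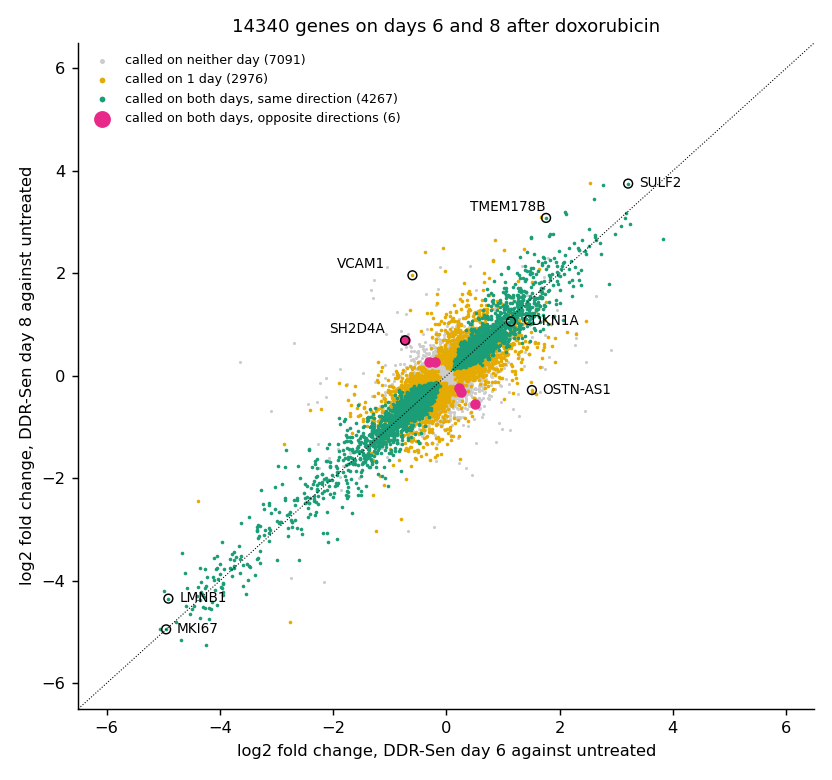
Each point is 1 of the 14340 genes, with its log2 fold change against untreated cells on day 6 (x axis) and day 8 (y axis) and colours for the calls; the dotted line marks equal change. The 4267 genes called in the same direction on both days lie along the line, with MKI67 and LMNB1 at the lower end and SULF2 at the upper, and the 6 genes called in opposite directions lie near the centre.

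The 6 genes with opposite calls differed from untreated cells by at most 0.73 in size on the log2 scale on either day. SH2D4A, an adaptor protein with an SH2 domain, had 1327 and 1352 normalized counts in untreated cells, 844 and 771 on day 6 and 2075 and 2249 on day 8. It fell by 0.73 on the log2 scale on day 6 (SE 0.20, adjusted p = 0.00664) and rose by 0.69 on day 8 (adjusted p = 0.00971). The others differed from untreated cells by at most 0.55 in size: LPXN, MAFG and UNKL rose and then fell below untreated cells, and PPP3CA, a catalytic subunit of calcineurin, and PSPC1, a paraspeckle protein, fell and then rose above them.

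Across 25 lists of genes, the calls were far from evenly spread. The share called lower stood furthest above the background in DNA replication, mitosis and homologous recombination, and the share called higher did so in clustered histones, p53 targets, mitochondrially encoded genes and lysosomal genes. The plot of list shares sets each beside the share over all genes.

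**Figure D2:**
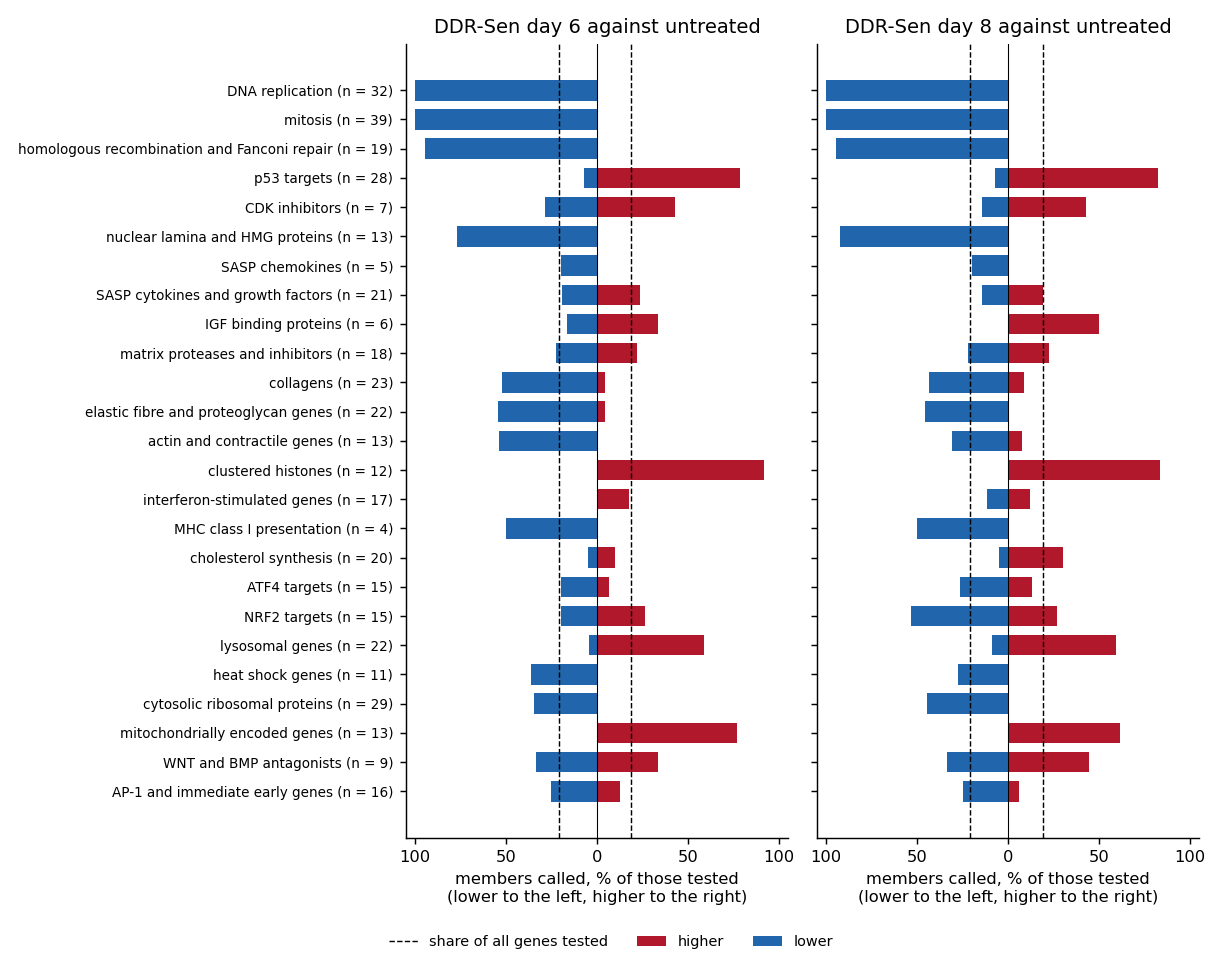
Bars give the percent of tested list members called lower (blue, to the left) and higher (red, to the right) than untreated cells on day 6 and day 8, with the number tested in brackets, and dashed lines mark the share over all genes. All 32 replication and 39 mitosis genes tested were lower on both days, while 11 and 10 of 12 histone genes were higher.

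Genes of the cell cycle gave the largest falls. All 39 mitosis genes tested, of 41 listed, fell on both days, with medians of -4.06 on day 6 and -4.13 on day 8 against -0.011 and -0.009 over all genes. PRC1 and SPC25 were below the filter. MKI67, the Ki-67 antigen of dividing cells, had 3325 and 2595 normalized counts in untreated cells, 74.0 and 119 on day 6 and 89.8 and 98.7 on day 8. The DDR-Sen libraries did not overlap the untreated ones, and MKI67 was 31.0-fold lower on day 6 (log2 -4.95, SE 0.50, adjusted p = 5.67e-07) and 30.9-fold lower on day 8. CDC20, the activator of the anaphase-promoting complex, went from 1262 and 1142 to 35.8 and 51.1 and then 35.6 and 50. It fell by 4.78 and 4.80 on the log2 scale (SE 0.41).

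The other genes with the largest falls on both days act at the same stage. TROAP, a spindle protein, had 205 and 195 normalized counts in untreated cells and between 3.95 and 7.69 in the 4 DDR-Sen libraries. KIF20A, a kinesin of the central spindle, had 1001 and 985 in untreated cells against 35.3 and 39.7 on day 6 and 20.9 and 34.6 on day 8. BIRC5 (survivin), ASPM, UBE2C, BUB1, DEPDC1 and KIF18B make up, with MKI67 and CDC20, the 10 largest falls at a mean count of at least 100, and their log2 fold changes lay between -4.35 and -4.72. Fewer dividing cells and less RNA of these genes per cell cannot be told apart in bulk libraries. The smallest fall on the list was that of AURKA, a spindle-pole kinase, from 1178 and 1105 to 358 and 365 on day 6 and 378 and 441 on day 8 (log2 -1.65 and -1.48); it is named after its values were seen.

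Promoters of mitosis genes are known to share a pair of elements, the cell cycle genes homology region (CHR), bound by DREAM, and the CCAAT box, bound by NF-Y. The stretches below are the 110 bases before the start of 3 genes of this list, from RefSeq on GRCh38.p14, with the CHR letters TTTGAA and the CCAAT box (CCAAT, or ATTGG where it lies on the other strand) in capitals. They are shown as examples that hold both elements, which not every promoter of the list does. MKI67 lies on the minus strand at chr10:128126424-128126533, CDC20 on the plus strand at chr1:43358871-43358980, and CCNB2, cyclin B2, on the plus strand at chr15:59105036-59105145.
MKI67: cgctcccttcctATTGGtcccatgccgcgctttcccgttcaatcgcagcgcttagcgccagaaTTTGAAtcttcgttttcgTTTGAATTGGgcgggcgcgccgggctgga
CDC20: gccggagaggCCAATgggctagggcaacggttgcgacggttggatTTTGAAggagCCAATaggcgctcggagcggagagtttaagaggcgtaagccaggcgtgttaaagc
CCNB2: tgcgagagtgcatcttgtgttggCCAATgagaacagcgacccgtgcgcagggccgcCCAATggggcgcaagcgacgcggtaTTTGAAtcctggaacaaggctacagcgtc

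The first base of the TTTGAA lies 47 bases before the start in MKI67, 65 in CDC20 and 29 in CCNB2. MKI67 has a second copy whose last letters overlap an ATTGG. Searched on both strands (TTTGAA or TTCAAA) in the 250 bases before each start, the CHR letters occurred in 15 of 33 matched mitosis promoters (45.5%), in 8.45% of the 10318 members with a promoter and in 13.6% of all 27305 promoters. CCAAT or ATTGG occurred in 24 of the 33 (72.7%), against 34.8% of members. Among DNA replication genes, which the E2F factors are known to drive, 1 of 28 promoters held TTTGAA and 16 held CCAAT. CCNB2 itself had 507 and 498 normalized counts in untreated cells, 43.9 and 57.5 on day 6 and 39.5 and 53.2 on day 8, and is named for its promoter. A match of letters is a description of the sequence and no evidence of binding.

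DNA replication genes fell less far than mitosis genes. All 32 tested were lower on both days, with medians of -2.18 and -1.91. RRM2, the small subunit of ribonucleotide reductase, had 2463 and 2218 normalized counts in untreated cells, 87.9 and 148 on day 6 and 132 and 224 on day 8. Its log2 fold change was -4.35 on day 6 (SE 0.43, adjusted p = 4.69e-07) and -3.76 on day 8. The thymidine kinase TK1 went from 1446 and 1386 to 56.1 and 89.4 and then 49.7 and 74.4. MCM10 and CDC45, which start the replication fork, fell by 4.26 and 3.80 on day 6. At the other end PCNA, the sliding clamp that also serves repair, had 1649 and 1532 in untreated cells and between 1084 and 1190 in the 4 DDR-Sen libraries (log2 -0.55 and -0.48); it is named after its values were seen.

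Genes that repair double-strand breaks by homologous recombination, and the Fanconi genes, were also lower after a drug that makes such breaks. Of 19 tested, 18 fell on day 6 and 18 on day 8, with medians of -2.57 and -2.37. RAD54L, a motor protein of strand exchange, had 119 and 103 normalized counts in untreated cells, 8.09 and 6.39 on day 6 and 9.60 and 7.05 on day 8. FANCD2, the Fanconi protein that is ubiquitinated at damage, went from 243 and 206 to 23.7 and 22.7 and then 33.9 and 38.5 (log2 -3.22 and -2.60, SE 0.23). RAD51AP1, a protein of strand exchange, and the nuclease EXO1 fell by 3.72 and 3.30 on day 6. On day 6 FANCM was not called (log2 -0.36, adjusted p = 0.0987), and on day 8 PALB2 was not (log2 -0.11, adjusted p = 0.41); both are named because they are the exceptions. BARD1, the partner of BRCA1, and the helicase BRIP1 rose from day 6 to day 8, by 1.20 and 0.61, while staying below untreated cells; both are named after their values were seen.

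**Figure D3:**
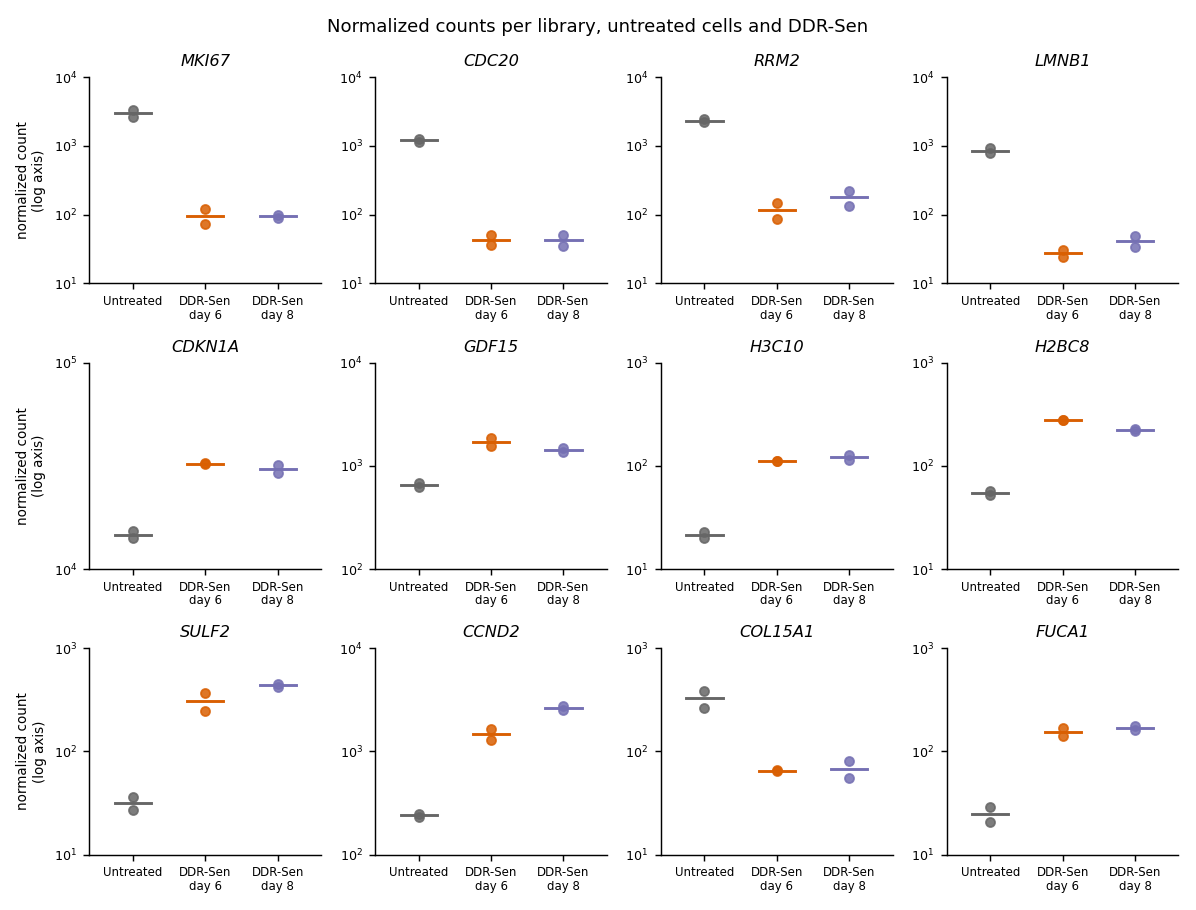
Points are normalized counts of the 2 libraries in each group on a log axis and lines are group means, for 12 genes that fell or rose on both days. Every gene as plotted has its untreated libraries apart from all 4 DDR-Sen libraries, as with GDF15 at 684 and 625 in untreated cells against 1370 to 1870. For CDKN1A the DDR-Sen pairs plotted are the most balanced of several solutions, so only its group means are exact.

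Most p53 targets rose, by moderate amounts. Of 28 tested, 22 were higher and 2 lower on day 6, and 23 higher and 2 lower on day 8, with medians of 0.53 and 0.48. CDKN1A, on chromosome 6 at 36676463 to 36687332, had 14118 and 15211 normalized counts in untreated cells, 32293 and 32492 on day 6 and 29137 and 31991 on day 8. It was 2.21-fold higher on day 6 (log2 1.14, SE 0.07, adjusted p = 3.12e-09) and 2.08-fold higher on day 8. For CDKN1A, 9 pairs of whole counts matched the day 6 mean and 6 the day 8 mean, and the most balanced pair was taken, so the mean is exact and the spread between its libraries may be understated.

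GDF15, a stress hormone, had 684 and 625 normalized counts in untreated cells, 1870 and 1567 on day 6 and 1370 and 1503 on day 8. It rose by 1.39 and 1.13 (SE 0.11). TP53INP1, a p53 cofactor of autophagy, went from 569 and 610 to 1476 and 1504 and then 1537 and 1349. TNFRSF10C, a decoy receptor for TRAIL with near-identical relatives, rose by 1.33 and 1.41. The 2 members that fell were BAX, a pore-forming protein of apoptosis, with 2250 and 2248 in untreated cells and 1673 to 1868 in DDR-Sen (log2 -0.40 and -0.35), and AEN, a nuclease of apoptosis (log2 -0.43 and -0.27); both are named because they are the exceptions.

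Among 7 CDK inhibitors, CDKN1A, CDKN2A and CDKN2B rose on both days. CDKN2A, which encodes p16 and ARF and is the usual marker of senescence, had 404 and 402 normalized counts in untreated cells, 605 and 497 on day 6 and 503 and 667 on day 8. The groups did not overlap, and its rise was 0.44 on day 6 (SE 0.12, adjusted p = 0.00802) and 0.52 on day 8 (adjusted p = 0.00251). CDKN2B, which encodes p15, had 218 and 169 in untreated cells against 551 and 407 on day 6 and 386 and 344 on day 8. CDKN2C, which encodes p18, moved the other way, from 373 and 312 to 29.5 and 29.8 and then 21.5 and 29.5 (log2 -3.48 and -3.71). CDKN1C was uneven between libraries, at 1.81 and 21 in untreated cells and 5.08 and 16 on day 8. It was not called on either day (SE 0.93).

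The mRNA of lamin B1 fell. LMNB1, which encodes this protein of the nuclear lamina, on chromosome 5 at 126776623 to 126837020, had 920 and 779 normalized counts in untreated cells, 24.3 and 30.5 on day 6 and 33.9 and 48.7 on day 8. It was 30-fold lower on day 6 (log2 -4.91, SE 0.31, adjusted p = 5.04e-09) and 20.4-fold lower on day 8. The difference between the days, 0.56, was not called (adjusted p = 0.341). Of the 13 lamina and HMG genes tested, 10 fell on day 6 and 12 on day 8.

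TMPO, the lamina-binding protein LAP2, went from 1649 and 1407 to 290 and 333 and then 290 and 368. LBR, the lamin B receptor, fell by 1.53 and 1.33, and HMGB2, a chromatin protein of dividing cells, by 2.95 and 2.66. LMNA, which encodes lamins A and C, fell by 0.36 and 0.48. HMGA1 and HMGA2, chromatin proteins known from senescent heterochromatin, were not called on day 6, at -0.16 and 0.02, and fell by 0.82 and 0.89 on day 8. HMGA2 had 5728 and 5960 in untreated cells, 6397 and 5493 on day 6 and 3100 and 3226 on day 8, and both genes were also lower on day 8 than on day 6. LMNA, HMGA1 and HMGA2 are named after their values were seen, and the pairs of LMNA and HMGA1 are among those with several solutions.

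Clustered histone genes rose while replication genes fell. Their mRNAs are normally made in S phase and end in a stem-loop rather than a poly(A) tail, and how RNA was selected for these libraries is not given in the sources used here. Of 22 listed, 12 passed the filter, and 11 of them were higher on day 6 and 10 on day 8, with medians of 1.66 and 1.40; none was lower. The 10 below the filter had at most 22 normalized counts in any library. The filter takes a mean over untreated and DDR-Sen libraries. A gene low in untreated cells therefore passed only through its DDR-Sen level, which can favour rises in these counts. Several histone genes are near copies of each other, so reads may be split among them.

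H2BC8 had 51.7 and 57.4 normalized counts in untreated cells, 277 and 280 on day 6 and 217 and 228 on day 8. It rose by 2.33 on day 6 (SE 0.19, adjusted p = 6.20e-08) and 2.01 on day 8. H3C10 went from 22.7 and 19.9 to 112 and 112 and then 114 and 128. H2AC13 had 9.06 and 9.93 in untreated cells, 48.0 and 65.3 on day 6 and 48.0 and 64.7 on day 8, with rises of 2.44 on both days. It passed the filter only through the DDR-Sen libraries, so its calls are not independent of the filter. H4C8, a gene for histone H4, rose by 1.73 and 1.84.

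The 110 bases before the start of these genes follow, again from RefSeq on GRCh38.p14, with the TATA box letters TATAAA and the CCAAT box (CCAAT or ATTGG) in capitals. They are shown because these histone genes carry a TATA box, unlike most promoters. H2AC13 is on the plus strand at chr6:27808063-27808172, H3C10 on the plus strand at chr6:27809941-27810050, and H2BC8 on the minus strand at chr6:26216689-26216798.
H2AC13: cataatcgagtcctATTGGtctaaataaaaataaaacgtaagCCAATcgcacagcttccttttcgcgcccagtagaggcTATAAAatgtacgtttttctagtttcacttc
H3C10: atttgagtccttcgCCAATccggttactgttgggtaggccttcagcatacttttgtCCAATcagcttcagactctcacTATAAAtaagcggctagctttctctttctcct
H2BC8: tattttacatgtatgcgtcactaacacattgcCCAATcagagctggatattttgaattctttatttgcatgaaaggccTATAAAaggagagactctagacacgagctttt

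TATAAA begins 31 bases before the start in H2AC13 and 32 in H3C10 and H2BC8. Searched on both strands (TATAAA or TTTATA) in the 250 bases upstream, it was found in 9 of the 12 histone promoters (75.0%), in 5.26% of members and in 11.1% of all promoters. CCAAT was found in 11 of the 12, and TTTGAA in 4 of the 12. H2AC13 and H3C10 lie near each other on chromosome 6.

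Chemokines of the SASP were mostly too low to test. Of 17 listed, 5 passed the filter, and none was higher than in untreated cells on either day. CXCL8, which attracts neutrophils, had 21.7 and 149 normalized counts in untreated cells, 53.8 and 31.9 on day 6 and 53.6 and 67.9 on day 8. The untreated libraries span all 4 DDR-Sen ones, and no change was called (adjusted p = 0.587 and 0.941). The direction of CXCL8 rests on them: without the larger untreated library its log2 difference was -1.82 on day 6, past the threshold, and -1.29 on day 8, and without the smaller one 0.90 and 1.43, the latter past the threshold. CXCL1 was likewise uneven, at 2.72 and 26.5 in untreated cells, so a moderate change in CXCL8 or CXCL1 could not be seen in these libraries. CXCL12, a chemokine that fibroblasts make constantly, went from 275 and 319 to 88.4 and 78.8 and then 163 and 158. It fell by 1.81 on day 6 (SE 0.24, adjusted p = 1.41e-05) and 0.88 on day 8, and rose by 0.93 between the days. CXCL10, an interferon-driven chemokine, had 5.44 to 8.83 in untreated cells and 9.25 to 20.5 in DDR-Sen and was not called.

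SASP cytokines and growth factors moved in both directions, with 5 higher and 4 lower of 21 tested on day 6 and 4 and 3 on day 8, close to the background. IL6 had 41.7 and 65.1 normalized counts in untreated cells, 37.0 and 39.0 on day 6 and 96.6 and 96.8 on day 8. It was not called on day 6 (log2 -0.45, adjusted p = 0.276) and rose on day 8 by 0.88 (SE 0.31, adjusted p = 0.0326), and the rise between the days was 1.32 (adjusted p = 0.0293). NRG1, a ligand of the ERBB receptors, was higher on both days, at 671 and 612 in untreated cells against 1252 to 1316 in the 4 DDR-Sen libraries (log2 1.03 and 1.00). AREG and EREG, ligands of the EGF receptor, rose on day 6 by 1.52 and 0.83 and were not called on day 8, at -0.31 and 0.31. The day 6 call held under 9 of 15 alternative settings for AREG and 7 of 16 for EREG, and the day 8 call of IL6 under 8 of 15. The fall of AREG between the days, 1.83 in size, was not called (adjusted p = 0.066). IL15 fell on both days, by 0.81 and 0.47, calls that held under 14 and 3 of 15 alternative settings.

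The summed level of leukocyte markers was higher in DDR-Sen than in untreated cells, and from day 6 to day 8 the increase was that of CD14. Summed over the 8 markers they were 16.6 to 17.2 normalized counts in untreated cells, 49.1 to 53.9 on day 6 and 73.7 to 89.2 on day 8. CD14, a co-receptor for lipopolysaccharide and the only one past the filter, had 15.4 and 16.6 in untreated cells, 30.1 and 34.1 on day 6 and 70.0 and 62.8 on day 8, and rose by 0.96 and 1.99. The call on day 6 held under 2 of 15 alternative settings and that on day 8 under 14. The log2 difference of CD14 between the days, 1.03, was not called. Of the defining markers, CD3E and ITGAM had at most 0.71 in any library, and MS4A1 was at 0. PTPRC was at 0 in both untreated libraries and at 5.77 to 16.4 in the 4 DDR-Sen ones. CD68 was at 0 in untreated cells, 4.05 and 3.55 on day 6 and 0 and 2.56 on day 8. The part of other cells in the cytokine values was not tested.

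Among the 6 IGF binding proteins tested, IGFBP2 and IGFBP7 rose on both days. IGFBP2 went from 531 and 332 normalized counts to 1538 and 1195 and then 1799 and 1984, a rise of 1.69 (SE 0.27, adjusted p = 9.73e-05) and 2.17. IGFBP7, a secreted SASP protein, had 7555 and 8727 in untreated cells, 14357 and 14066 on day 6 and 14052 and 16531 on day 8. IGFBP3, a main carrier of IGFs, had 5742 and 4987 in untreated cells, 1773 and 1796 on day 6 and 3348 and 3556 on day 8. Its fall of 1.58 was called on day 6 (adjusted p = 0.00268) and its log2 difference of -0.63 on day 8 was not (adjusted p = 0.194). IGFBP5, at 112680 and 73186 in untreated cells and 59580 to 90035 in DDR-Sen, was not called. For IGFBP7 and IGFBP5 the pair of libraries is again the most balanced of several solutions.

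Proteases and their inhibitors showed no common direction, with 4 of 18 tested higher and 4 lower on each day, close to the shares over all genes. MMP3, stromelysin, had 411 and 838 normalized counts in untreated cells, 324 and 340 on day 6 and 215 and 251 on day 8. All 4 DDR-Sen libraries lay below both untreated ones. The differences of -0.82 and -1.33 were not called (SE 0.80, adjusted p = 0.445 and 0.2). This SE draws on all 13 groups of the fit, among them replicatively senescent cells, where MMP3 was at 850 and 35. MMP1, interstitial collagenase, had 2388 and 4017 in untreated cells, 5855 and 7560 on day 6 and 2482 and 2502 on day 8 and was not called. MMP10 fell by 2.64 and 2.97, from 20.8 and 102 to 3.95 to 9.22, calls that held under 11 and 12 of 15 alternative settings. PLAT, tissue plasminogen activator, went from 8727 and 9786 to 25027 and 26227 and then 14954 and 14687, with a rise of 1.47 and 0.68 and with several solutions for its pairs. SERPINB2, an inhibitor of plasminogen activators, had 80.7 and 86.1 in untreated cells, 218 and 355 on day 6 and 121 and 126 on day 8, a rise of 1.73 on day 6 that was not called on day 8 (log2 0.56, adjusted p = 0.094).

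Extracellular matrix genes were lower. Of 23 collagen chains, 12 fell and 1 rose on day 6, and 10 fell and 2 rose on day 8, with medians of -0.59 and -0.49. COL15A1, of basement membrane zones, had 387 and 266 normalized counts in untreated cells, 64.2 and 66 on day 6 and 81.3 and 55.1 on day 8. It fell by 2.28 (SE 0.37, adjusted p = 1.07e-04) and 2.24. The type IV chains COL4A1 and COL4A2 lie side by side in the genome and fell together, by 1.27 and 1.21 on day 6 and 1.23 and 1.32 on day 8. COL6A3 went from 90646 and 68862 to 34866 and 31426 and then 31470 and 28275. These 3 genes have pairs chosen among several solutions. The fibrillar chains varied more: COL1A1, at 225549 and 176417 in untreated cells, was not called on day 6 (log2 -0.59, adjusted p = 0.0533) and fell by 0.69 on day 8, and COL3A1 was not called on either day (log2 -0.34 and 0.02); both are named after their values were seen.

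Elastic fibre and proteoglycan genes showed the same direction, with 12 lower and 1 higher of 22 on day 6 and 10 lower and 0 higher on day 8. ELN, elastin, had 147 and 249 normalized counts in untreated cells, 47.4 and 40.4 on day 6 and 22 and 21.8 on day 8. It fell by 2.10 (SE 0.42, adjusted p = 6.60e-04) and 3.07. FBN2, fibrillin 2, went from 8940 and 7982 to 2733 and 2424 and then 3659 and 3286. POSTN and TNC, matricellular proteins of wounds, fell by 1.45 and 1.27 on day 6 and by 1.54 and 1.38 on day 8. Counts of collagens called lower ran from 6 to 16 on day 6 over the alternative settings, and those of this list from 7 to 13.

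Of 13 actin and contractile genes, 7 fell on day 6 and 4 on day 8. TPM1, a tropomyosin, had 12468 and 15277 normalized counts in untreated cells, 8106 and 7230 on day 6 and 9812 and 10473 on day 8. It fell by 0.85 on day 6 (adjusted p = 0.00603) and was not called on day 8 (log2 -0.45, adjusted p = 0.129). MYH10, non-muscle myosin IIB, went from 3327 and 2765 to 1729 and 1677 and then 2414 and 2484. Its falls of 0.83 and 0.31 were both called, and so was the rise of 0.52 between the days. SRF, the transcription factor of actin genes, and TGFB1I1, a focal adhesion protein, were lower on both days.

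Lysosomal genes rose by small amounts. Of 22 tested, 13 were higher and 1 lower on day 6, and 13 higher and 2 lower on day 8, with medians of 0.27 and 0.32. FUCA1, the lysosomal fucosidase, stood out, with 20.8 and 28.7 normalized counts in untreated cells, 142 and 170 on day 6 and 178 and 160 on day 8. It was 6.14-fold higher on day 6 (log2 2.62, SE 0.21, adjusted p = 4.44e-08) and 6.67-fold higher on day 8. NPC2, a cholesterol carrier, went from 978 and 1081 to 1570 and 1650 and then 1680 and 1823. MCOLN1, a lysosomal calcium channel, rose by 0.76 and 0.52. GLB1, which encodes the enzyme of senescence-associated β-galactosidase staining, had 1520 and 1425 in untreated cells, 1784 and 1943 on day 6 and 1961 and 2064 on day 8, a rise of 0.34 and 0.45 (SE 0.06); it is named for that assay.

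Mitochondrially encoded genes also rose slightly, 10 of 13 on day 6 and 8 of 13 on day 8, with medians of 0.24 and 0.18. MT-ND6, the complex I subunit on the other strand of the mitochondrial genome, had 11141 and 10982 normalized counts in untreated cells and 15008 to 16284 in the 4 DDR-Sen libraries. It rose by 0.48 (SE 0.07, adjusted p = 2.13e-05) and 0.51. MT-ND3, MT-ND4 and MT-ND5 rose by 0.32, 0.33 and 0.36 on day 6. Cytosolic ribosomal proteins were lower by a similar amount, 10 of 29 called on day 6 and 13 on day 8, with medians of -0.21 and -0.23, and none higher. RPL3, again with several solutions, went from 19616 and 18901 to 14379 and 14863 and then 15326 and 17358. With counts scaled by total reads, 4 ribosomal genes were called lower on day 6 and 10 on day 8. Over all alternative settings, ribosomal genes called lower ran from 2 to 13 and from 2 to 18, and mitochondrial genes called higher from 4 to 12 and from 4 to 8. RPS9, at 161 and 37.5 in untreated cells and 22 to 27.6 in DDR-Sen, differed most but was not called.

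Targets of ATF4, the factor of amino acid and endoplasmic reticulum stress, were called lower in shares near those over all genes. Of 15 tested, 1 rose and 3 fell on day 6, and 2 rose and 4 fell on day 8. PHGDH, the first enzyme of serine synthesis, had 1454 and 983 normalized counts in untreated cells, 409 and 392 on day 6 and 411 and 490 on day 8, and fell by 1.58 and 1.41 (SE 0.24). SLC7A5, a transporter of large amino acids, fell by 1.39 and 1.43. Among 11 heat shock genes, 4 fell on day 6 and 3 on day 8 and none rose; HSPD1 and HSPE1, the mitochondrial chaperonin pair, fell by 0.77 and 0.60 on day 6 and by 0.61 and 0.57 on day 8.

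NRF2 targets, the antioxidant genes, gave 4 higher and 3 lower of 15 on day 6 and 4 higher and 8 lower on day 8. The day 6 counts were near the shares over all genes. The count of NRF2 targets called lower on day 8 ran from 1 to 8 over the alternative settings. AKR1B10, an aldo-keto reductase, had 19 and 21 normalized counts in untreated cells, 59.0 and 75.2 on day 6 and 26 and 25 on day 8. It rose by 1.69 on day 6 (adjusted p = 4.52e-05), was not called on day 8 (log2 0.34, adjusted p = 0.313), and fell by 1.35 between the days. GCLC and GCLM, the subunits of glutamate-cysteine ligase, moved apart, with GCLC up by 0.41 and 0.27 and GCLM down to -0.44 and -0.38. HMOX1, heme oxygenase 1, had 618 and 1043 in untreated cells and 437 to 521 in DDR-Sen and fell by 0.74 and 0.86, calls that held under 5 and 10 of 16 alternative settings.

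Of 20 genes of cholesterol synthesis, 2 were higher and 1 lower on day 6, and 6 higher and 1 lower on day 8. Over all genes, 19.0% were higher on day 6 and 19.1% on day 8. DHCR7, the last enzyme of the pathway, had 953 and 658 normalized counts in untreated cells, 1275 and 1359 on day 6 and 1498 and 1449 on day 8, and rose by 0.73 and 0.89 (SE 0.16).

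Interferon-stimulated genes differed between libraries of the same group. Of 17 tested, 3 rose on day 6, and 2 rose and 2 fell on day 8. Over all genes, 19.0% were higher on day 6, and 19.1% were higher and 21.1% lower on day 8. MX1, an antiviral GTPase, had 88.8 and 35.3 normalized counts in untreated cells, 113 and 256 on day 6 and 23.7 and 80.8 on day 8, and its rise of 1.58 on day 6 (SE 0.60, adjusted p = 0.0429) was called under this and 9 of 15 alternative settings. IFI44L, at 24.9 and 53.9 on day 6, and OAS2, at 16.8 and 53.9, were also higher in the smaller day 6 library and were not called. IFI6 rose on both days, from 453 and 372 to 734 and 1031 and then 722 and 1137.

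At a mean count of at least 100, the 10 largest rises on both days belong to no single list. H2AC13 and H3C10, described above, rose by more than some of them at lower mean counts. SULF2, an extracellular sulfatase that trims heparan sulfate, had 27.2 and 36.4 normalized counts in untreated cells, 367 and 245 on day 6 and 452 and 420 on day 8. It was 9.27-fold higher on day 6 (log2 3.21, SE 0.18, adjusted p = 1.97e-09) and 13.5-fold higher on day 8. CCND2, cyclin D2 of the G1 phase, went from 246 and 233 to 1634 and 1295 and then 2756 and 2508. It was 6.05-fold higher on day 6 and 10.9-fold on day 8, and the further rise of 0.85 between the days was called (adjusted p = 0.00184).

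RGS5, a brake on G protein signaling known from pericytes, had 165 and 175 normalized counts in untreated cells, 921 and 827 on day 6 and 944 and 938 on day 8. PTCHD4, a Patched-related protein that p53 is known to induce, went from 108 and 92.7 to 516 and 459 and then 506 and 383 (log2 2.27 and 2.13). FBXO32, the ubiquitin ligase atrogin-1, had 88.8 and 78.3 in untreated cells, 438 and 437 on day 6 and 292 and 280 on day 8. The lipid transporter ABCA3 rose by 1.95 and 2.02, and TSPAN11, a tetraspanin, by 1.83 and 1.87. TMEM178B kept rising, from 66.2 and 68.4 to 267 and 199 and then 584 and 567, and FUCA1 and H2BC8 complete the set.

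Days 6 and 8 were then compared directly, a test in which the untreated libraries take no part except through the shared spread. On day 8, 273 genes (1.90%) were higher and 200 (1.39%) lower than on day 6, and 2851 genes had an unadjusted p under 0.05. This count rests on single libraries. Without the larger day 6 library 51 genes were called, without the smaller day 6 library 23, and without the smaller day 8 library 24, while without the larger day 8 library 502 were, of which 228 were among the 473, with 199 higher and 303 lower. No gene was called when the Ca2+-Sen groups were left out of the estimate of the spread, with 1770 at an unadjusted p under 0.05.

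**Figure D4:**
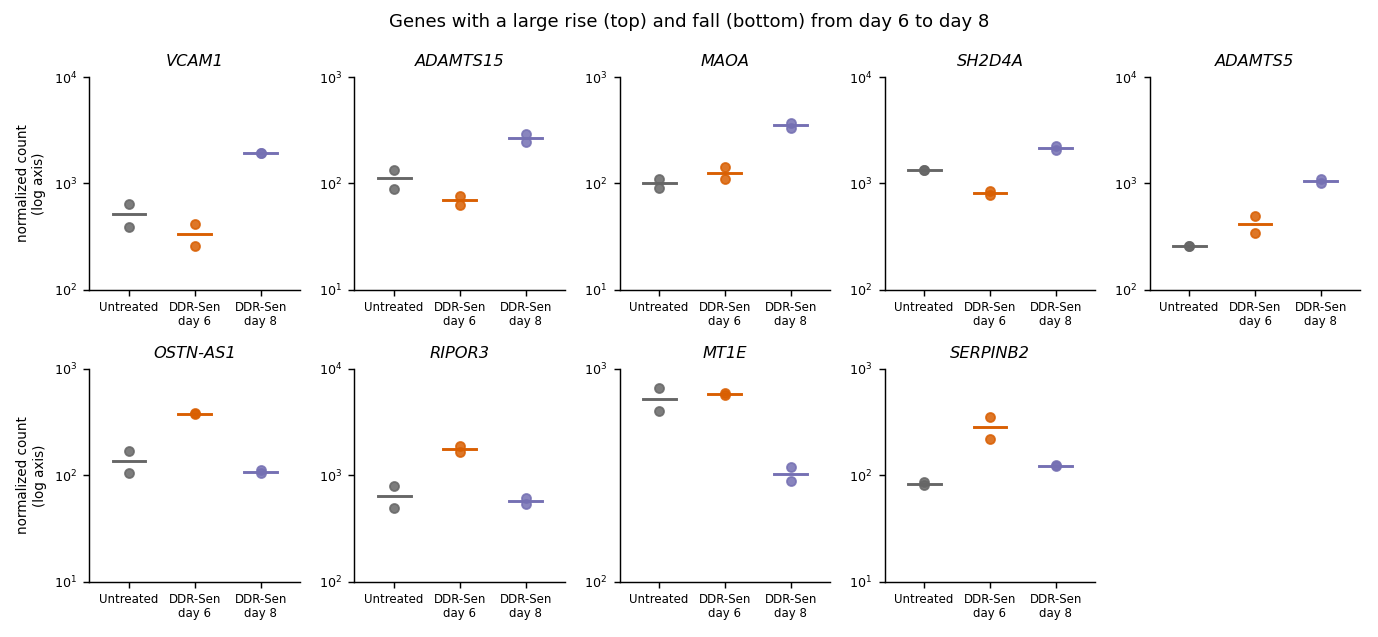
Points are normalized counts of the 2 libraries in each group on a log axis and lines are group means, for 5 genes with a large rise (top) and 4 with a large fall (bottom) from day 6 to day 8. VCAM1 lies at 1937 and 1942 on day 8, above 256 to 635 in the other 4 libraries, and RIPOR3 is high on day 6 alone.

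Genes are named here from those with a mean count of at least 100. VCAM1, an adhesion molecule that binds leukocytes, had 635 and 387 normalized counts in untreated cells, 419 and 256 on day 6 and 1937 and 1942 on day 8. It was 5.90-fold higher on day 8 than on day 6 (log2 2.56, SE 0.63, adjusted p = 0.0336), and untreated cells and day 6 overlapped. ADAMTS15 and ADAMTS5, proteases that cut aggrecan, rose between the days by 1.93 and 1.34. ADAMTS5 went from 260 and 258 to 344 and 495 and then 1093 and 1005. MAOA, monoamine oxidase A, had 110 and 90.5 in untreated cells, 142 and 109 on day 6 and 334 and 372 on day 8 (log2 1.50, SE 0.29, adjusted p = 0.0111 between the days). SH2D4A, described above, rose by 1.42.

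Large falls between the days, also at a mean count of at least 100, were mostly of genes that stood above untreated cells on day 6. RIPOR3 had 497 and 790 normalized counts in untreated cells, 1666 and 1897 on day 6 and 605 and 540 on day 8, a fall of 1.64 (SE 0.38, adjusted p = 0.0288). OSTN-AS1, an antisense RNA, went from 104 and 169 to 376 and 385 and then 104 and 113. Whether counting used strand is not given in the sources used here, so reads of OSTN-AS1 and of a gene it overlaps cannot be told apart. MT1E, a metallothionein with near-identical relatives, had 752 and 770 on day 6 and 296 and 345 on day 8, and fell by 1.25. SERPINB2 fell by 1.17.

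DDR-Sen was set beside Ca2+-Sen, the senescence that follows 24 h of 75 mM KCl, on the same days, and beside replicatively senescent cells (RS), passaged until they stopped dividing around population doubling level 52. These tests compare the senescent groups directly. On day 6, 245 genes (1.71%) were higher and 473 (3.30%) lower in DDR-Sen than in Ca2+-Sen. On day 8, 1859 (13.0%) were higher and 1771 (12.4%) lower than in Ca2+-Sen. Against RS, 1155 (8.05%) were higher on day 8 and 1258 (8.77%) lower. With counts scaled by total reads the share of higher calls moved from 34.1% to 47.6%, from 51.2% to 61.9% and from 47.9% to 60.9% in these comparisons.

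Mitosis genes were lower in DDR-Sen than in Ca2+-Sen. Of 39 mitosis genes, 35 were lower on day 6 (median -2.09) and 27 on day 8 (median -1.15), and none was higher. Of 32 DNA replication genes, 20 were lower on day 6 (median -0.80) and 5 on day 8 (median -0.26), and none was higher. The day 8 share of replication genes was near the 12.4% over all genes. Their counts ran from 5 to 29 and from 3 to 5 over the alternative settings. MKI67 had 1046 and 414 normalized counts in Ca2+-Sen on day 6 against 74.0 and 119 in DDR-Sen (log2 -2.80, SE 0.50, adjusted p = 0.00355). LMNB1 was at 299 and 146 against 24.3 and 30.5. The Ca2+-Sen day 6 libraries stood apart from each other, with median mitosis levels of -1.44 and -2.58 relative to untreated cells on the log2 scale, and both lay above the DDR-Sen medians of -4.20 and -3.70. Over the alternative settings, which include leaving out each of these libraries, 15 to 39 mitosis genes were lower on day 6 and 7 to 28 on day 8.

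**Figure D5:**
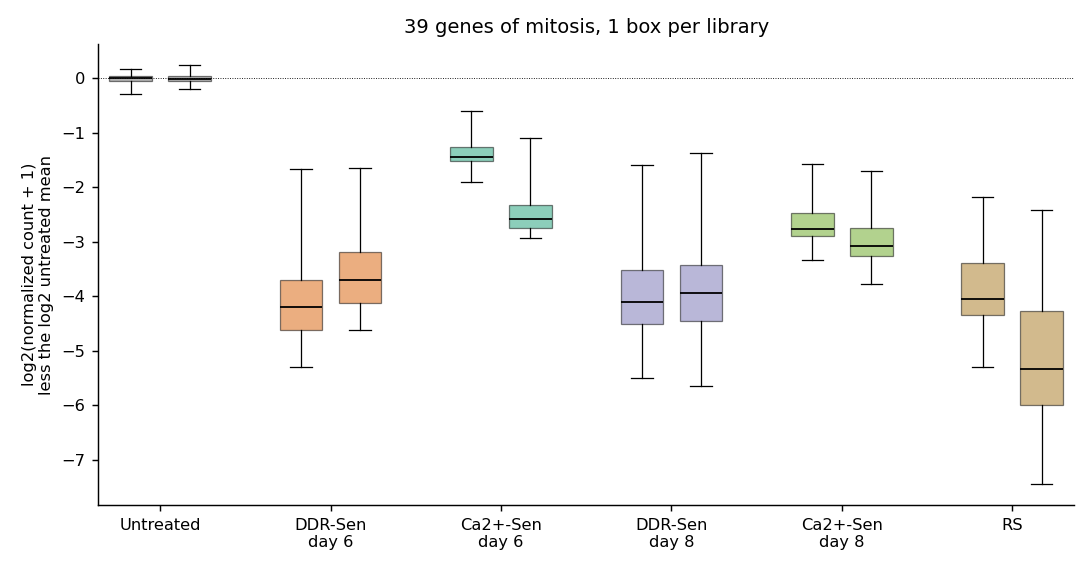
Boxes show, for each library, log2(normalized count + 1) of 39 mitosis genes less the log2 untreated mean of each gene, with the median as a line, quartiles as the box and the lowest and highest gene as whiskers. DDR-Sen medians lie between -3.70 and -4.20, below the Ca2+-Sen ones at -1.44 to -3.08, and the RS libraries at -4.05 and -5.34 differ from each other by more than the 4 DDR-Sen libraries do.

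Against RS, 6 mitosis genes were higher in DDR-Sen on day 8 and none lower, a count that ran from 1 to 23 over the settings, with medians from -0.09 to 1.20. CDKN2A was lower in DDR-Sen than in RS, at 503 and 667 against 1256 and 1146 (log2 -1.05, SE 0.12, adjusted p = 2.50e-05), and CDKN1A was higher, at 29137 and 31991 against 22324 and 23349 (log2 0.42). Of 28 p53 targets, 12 were higher and 1 lower than in RS, and 9 were higher and 0 lower than in Ca2+-Sen on day 8. Histones were higher in DDR-Sen than in Ca2+-Sen, 6 of 12 on day 6 and 7 of 12 on day 8, and lower than in RS for 5 of 12. Over the alternative settings these histone counts ran from 0 to 7, 3 to 7 and 2 to 7, and the count of p53 targets higher than in Ca2+-Sen on day 8 from 3 to 9.

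Interferon-stimulated genes were lower in DDR-Sen on day 8 than in either other state, 9 of 17 against Ca2+-Sen (median -1.30) and 9 of 17 against RS (median -1.19). These counts ran from 2 to 9 and from 1 to 13 over the alternative settings. Collagens were lower than in Ca2+-Sen on day 8 for 10 of 23 and not called on day 6 for any. NRF2 targets were lower on day 8 for 8 of 15 against Ca2+-Sen and 11 of 15 against RS. Single genes differed more widely. ELN had 22 and 21.8 normalized counts in DDR-Sen on day 8 against 146 and 517 in RS (log2 -3.59, SE 0.42), and FGL2, a secreted fibrinogen-like protein, had 206 and 152 against 5173 and 1316 (log2 -3.87). SULF2 was 3.28-fold higher in DDR-Sen than in Ca2+-Sen on day 6, at 367 and 245 against 83.5 and 98.8 (SE 0.18, adjusted p = 1.08e-04). FLII, an actin-binding protein, was 10.0-fold higher in DDR-Sen on day 8 than in Ca2+-Sen, at 505 and 670 against 67.1 and 48.5, and had 403 and 61 on day 6. FGL2 and FLII are named after their values were seen.

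The comparisons with other states depend on single libraries too. Without the larger Ca2+-Sen day 6 library 99 genes were called on day 6 and without the smaller one 1655, and without each day 6 DDR-Sen library 193 and 223. On day 8, 1604 genes were called against Ca2+-Sen without the smaller DDR-Sen library, and 2116 and 1669 without the larger and the smaller Ca2+-Sen library. Against RS, 1094 were called without the smaller DDR-Sen library.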

How the data were processed

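The series measured mRNA of 52 WI-38 samples in 26 groups of 2 by paired-end sequencing. Per the labels' processing notes, reads passed through Trim Galore, HISAT2, HTSeq, featureCounts and DESeq2, on GRCh38 (hg38), with no versions or roles named. The authors deposited 1 table per comparison with untreated cells, whose baseMean column is a signal value that the authors made as the mean over 4 libraries of the read count divided by a size factor. The remaining columns hold the authors' own fold changes, standard errors and p-values and were not used.

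Because a count is whole, the libraries behind each mean could be separated. Counts of the untreated libraries, solved from 2 sets of tables, were equal for 25271 of 25271 genes, and 12 tables were used. In DDR-Sen, 374 members on day 6 and 355 on day 8 had several whole-number solutions, with means of at least 603.1 and 284.5. For these the most balanced pair was taken, so that the mean is exact and the spread between libraries is understated. The recovered libraries carry no replicate number.

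Counts on the untreated scale were tested as log2(value + 1) with limma 3.58.1 (R 4.3.3), with a trended variance shared over 26 libraries in 13 groups (Untreated, DDR-Sen days 6 and 8, 8 days of Ca2+-Sen, RS and PMD-Sen day 2, which followed 24 h of 0.009% SDS), 13 residual degrees of freedom and Benjamini-Hochberg adjustment over 14340 genes. The design first written took each DDR-Sen group as 1 mean column of weight 2. Individual libraries replaced it once they could be separated, and the first design is an alternative. The procedure was tested on simulated data, where the share of unchanged genes among calls exceeded the nominal 0.05. Alternatives changed the pseudocount, scaling, filter, fold threshold, groups behind the spread, weights and libraries.

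Python 3.11.15, NumPy 2.4.6, pandas 2.3.3, SymPy 1.14.0 and matplotlib 3.10.9 were used. Named genes were 8 set by name (CDKN1A, CDKN2A, LMNB1, GDF15, MKI67, IL6, CXCL8 and MMP3), the 10 largest rises and falls shared by both days and the 5 between the days at a mean of at least 100, and up to 4 members per list with the largest change on day 6. Any other gene is said to be named after its values were seen or stands for a stated reason. Some genes that this rule names are not reported here. Members and lists were chosen with earlier results of these data known.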

Additional observations from a re-analysis of the deposited data

Results flagged for a closer look

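Effects that differed between the days by a direct limma test with Benjamini-Hochberg adjustment are given here. In all, 473 genes were called between day 8 and day 6. At a mean count of at least 100, the largest rises were those of VCAM1 (log2 2.56, adjusted p = 0.0336), ADAMTS15 (1.93, 0.0174), MAOA (1.50, 0.0111), SH2D4A (1.42, 0.00187) and ADAMTS5 (1.34, 0.0142). Large falls were those of OSTN-AS1 (-1.80, 0.0293), RIPOR3 (-1.64, 0.0288), MT1E (-1.25, 0.024) and SERPINB2 (-1.17, 0.0234), with the adjusted p second in each bracket.

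Among genes of the lists and of the largest shared changes, IL6 (1.32, 0.0293), TMEM178B (1.32, 0.0298), CXCL12 (0.93, 0.0438), CCND2 (0.85, 0.00184) and MYH10 (0.52, 0.00717) rose between the days, and AKR1B10 (-1.35, 0.0102) fell. For VCAM1, MAOA, CXCL12 and IL6 the call held under 10 of 16, 11 of 16, 6 of 16 and 8 of 15 alternative settings. None of the 16 named genes called between the days kept that call under every alternative. Each difference rests on 2 libraries a day, and its cause was not tested.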

How the results depend on the processing

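No paired analysis was possible because the recovered libraries carry no number. No called value changed sign under any alternative run. Of 6453 values of named genes under an alternative, 87 changed sign, 83 of them with 1 library left out, and none of these was called either there or as reported. Of 136 named genes, 103 were called on day 6 and 99 on day 8, and 60 kept the call under every alternative on each day. Requiring a log2 fold change of at least 1 as well left 1118 genes on day 6, 1147 on day 8 and 62 between the days. Between the days, no gene was called without the Ca2+-Sen groups in the spread (0 by limma, with 1770 at an unadjusted p under 0.05), and 309 with voom weights. Leaving out 1 library gave 23 (without the smaller day 6 library) to 515 (without the smaller untreated library) calls between the days, 4135 to 5866 on day 6 and 4376 to 5662 on day 8. Taking the spread from the untreated libraries alone gave 4048 and 4089 calls on days 6 and 8. The first written design gave 5725, 5753 and 410. The voom weights, the fit on 6 libraries, that design and the omission of DDR-Sen, Ca2+-Sen and RS libraries were added after seeing the data. The cause of these shifts was not tested. The untreated libraries, the shallowest of the 6, differed over 4-fold for 75 genes. Of these, 8 were called on each day, against 5748 on day 6 and 5774 on day 8 of all 14340 genes. Genes uneven in untreated cells were thus seldom called, and the cause was not tested.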

Other observations

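Antagonists of WNT and BMP signaling moved apart. Of 9 tested, 3 rose and 3 fell on day 6, and 4 rose and 3 fell on day 8. DKK2, a WNT antagonist, had 57.1 and 44.1 normalized counts in untreated cells, 130 and 129 on day 6 and 172 and 212 on day 8, and its relative DKK1 went from 1350 and 1474 to 629 and 566 and then 421 and 470. In log2 terms DKK2 rose by 1.35 and 1.91, and DKK1 fell by 1.24 and 1.66. FST, which binds activins, fell by 1.19 and 1.42.

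Of 16 AP-1 and immediate early genes, 2 rose and 4 fell on day 6, and 1 rose and 4 fell on day 8. The share that fell was near the 21.1% over all genes on each day. NR4A2, an orphan nuclear receptor, had 63.4 and 99.3 normalized counts in untreated cells, 458 and 429 on day 6 and 182 and 151 on day 8. Its rise of 2.47 on day 6 was called (limma, adjusted p = 0.00299) and its level on day 8 was not. FOSL1, an AP-1 subunit, fell by 0.99 and 1.04, and KLF2 by 0.82 and 1.43. Of 4 MHC class I genes tested, of 12 listed, 2 fell on each day, among them NLRC5, a transcriptional activator of the class, by 0.29 and 0.32.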
